A study of Mus musculus with 15 samples.

Results

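A set of 6 genes, the TWEAK receptor, its ligand and 4 muscle ubiquitin ligases of the atrophy pathway, was followed through 7 d of CELF2 induction in the adult mouse heart. The genes are Tnfrsf12a (the receptor, also called Fn14), Tnfsf12 (TWEAK itself), the muscle RING-finger ubiquitin ligases Trim63, Trim55 and Trim54, and Fbxo32 (atrogin-1). The 6 were taken by symbol from a table of 16199 genes, and each symbol matched 1 row. They were chosen from measured values of these same hearts, since Tnfrsf12a and Trim63 were known to be high at 7 d, so their levels and differences are given as a description with no test of their own.

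Ventricles came from 15 FVB mice aged 14 to 16 weeks, 3 control mice and 3 mice each after 12 h, 24 h, 72 h and 7 d of doxycycline, with 1 library per animal. The labels give 2 g/kg in the diet, and the study's animal table lists another dose. Induced mice were the bitransgenic offspring of an MHCrtTA and a TRECUGBP2 line, in which the cardiac Myh6 promoter drives the reverse tetracycline transactivator and this switches on a FLAG-tagged human CELF2 (CUGBP2) transgene in cardiomyocytes when doxycycline is given. Control mice carried MHCrtTA alone and had doxycycline for 72 h, so transactivator and drug were common to all 5 groups. Only the 72 h hearts matched control in the time on the drug. A label field of the 12 induced hearts speaks of a Celf1 cassette, which their titles and genotypes do not.

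Levels are given as RPKM, that is, reads over constitutive coding sequence per kilobase of it and relative to all reads of a library that map uniquely outside ribosomal and mitochondrial sequence. The Celf2 row, listed as Cugbp2, checked the labels. It lay between 8.54 and 11.3 RPKM in control hearts, and in induced hearts between 84.5 and 192.2 RPKM (12 h), 112 and 173 RPKM (24 h), 213 and 261 RPKM (72 h), and 261 and 359 RPKM (7 d). This row is that of the mouse gene and the transgene is human, so how much transgene mRNA it counts is not known. The libraries carry 3 codes in their titles, here called runs A, B and C, whose nature is not given. Every group has 1 heart in run A except 72 h, which has 2. The others of control, 12 h and 24 h are in run B and those of 72 h and 7 d in run C, so runs B and C share no group, and only run A holds all 5. The sum of 4 Y-linked mRNAs, which mark male mice, exceeded 1 RPKM in 1 of the control hearts. It did so in 0 hearts at 12 h, in 2 at 24 h and in all 3 at both 72 h and 7 d. All 12 cardiomyocyte markers were detected, and their summed level was 56283 to 58481 RPKM in 7 d hearts and 59973 to 62278 RPKM in control hearts. These 12 went in both directions. On the log2 scale given below, their differences of 7 d from control ran from -0.44 to 0.63, with a median of -0.22. Of 15 skeletal muscle markers, Ryr1 stayed under 0.1 RPKM in every group, and the sum of all 15 was 151 to 178 RPKM at 7 d and 168 to 183 RPKM in control hearts. In such whole-tissue samples, fewer cells of a type and less RNA per cell cannot be told apart.

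TWEAK is a cytokine of the tumour necrosis factor (TNF) family. It binds Fn14, a small receptor that is scarce in healthy muscle and appears on injury or disuse, and Fn14 passes the signal through TRAF adaptors to NF-kB. In wasting skeletal muscle, ubiquitin ligases of muscle mark sarcomere proteins for degradation by the proteasome. MuRF1, encoded by Trim63, and its relatives MuRF2 (Trim55) and MuRF3 (Trim54) carry a RING finger and sit at the sarcomere or on microtubules, while atrogin-1 (Fbxo32) is the substrate-binding F-box protein of a cullin-based ligase. FOXO factors and the glucocorticoid receptor are known activators of Trim63 in skeletal muscle, and FOXO factors of Fbxo32.

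On the mm9 assembly, Tnfrsf12a spans chr17:23812414-23814416 on the minus strand, Tnfsf12 chr11:69499752-69509351 (minus), Trim63 chr4:133871035-133885544 (plus), Trim54 chr5:31419085-31440003 (plus), Trim55 chr3:19544460-19591599 (plus) and Fbxo32 chr15:58011634-58046433 (minus). Their coding sequences measure 390, 750, 1068, 1101, 1638 and 1068 bases in that order. A read of 36 bases can separate 5 of the 6 from every other annotated coding sequence. Tnfsf12 is the exception, since 83.6% of the 36-base words of its coding sequence also belong to the read-through gene BC096441 (Tnfsf12-tnfsf13 in the table), so the values of these 2 rows cannot be assigned to either with certainty. Exons on the opposite strand overlap Tnfrsf12a (Hcfc1r1, 78 bases), Trim54 (382 bases) and Fbxo32 (186 bases), and the sources used here do not say whether counting used the strand.

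The RefSeq promoter table (GRCm38.p6) matched 3 of the 6 genes, and the 250 bases before the start of 2 of them are shown because they are the genes with the largest differences at 7 d and their motifs differ. Capitals mark every match among 9 motifs searched on both strands. The letters of the motifs that had a match in any of the 3 genes are given below beside their results.
Trim63, chr4:134314870-134315119 (plus): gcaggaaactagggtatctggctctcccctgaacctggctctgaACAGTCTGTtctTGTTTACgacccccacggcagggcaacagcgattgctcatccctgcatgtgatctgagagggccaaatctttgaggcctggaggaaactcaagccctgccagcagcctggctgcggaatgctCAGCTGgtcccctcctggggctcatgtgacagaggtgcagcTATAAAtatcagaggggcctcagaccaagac
Tnfrsf12a, chr17:23677450-23677699 (minus): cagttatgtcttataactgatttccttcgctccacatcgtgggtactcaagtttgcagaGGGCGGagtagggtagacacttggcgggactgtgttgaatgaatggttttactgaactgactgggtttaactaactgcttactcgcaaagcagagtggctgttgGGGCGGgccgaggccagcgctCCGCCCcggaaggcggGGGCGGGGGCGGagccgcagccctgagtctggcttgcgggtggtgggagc

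The Trim63 window holds, from its 5′ end, a match to the glucocorticoid receptor motif ACANNNTGT that starts 206 bases before the gene's start. The FOXO motif, searched as GTAAACA, follows on the reverse strand at 194 bases and does not overlap it. An E-box of the letters CAGCTG lies at 72 bases before the start. The TATA box, TATAAA, lies at 31 bases. Among 12770 promoters of the same table and length, 4.21% hold the glucocorticoid receptor motif, 2.36% the FOXO motif, 12.4% this E-box and 8.61% the TATA box. The Tnfrsf12a window holds 5 GC boxes (GGGCGG, a motif added after the sequences were seen), of which the last pair directly adjoin, and none of the other 8 motifs. A GC box is in 51.9% of promoters. The Trim54 window (chr5:31116362-31116611) has 1 match to the AP-1 motif TGANTCA, 139 bases before the start, and 1 E-box, at 113. AP-1 is in 5.26% of promoters. None of the 3 windows holds a match to MEF2 (1.92% of promoters), the CArG box (1.33%) or NF-kB (4.43%), each by its usual consensus. CELF proteins are known to bind GU-rich RNA. The core of the GU-rich element, UGUUUGU, searched on the RNA strand, is in none of the 3′ UTRs of the 5 genes that have one in the annotation, of 137 to 1387 bases. The same holds for the GU repeat UGUGUGU. Of 13246 genes with such a region, 26.3% hold the element and 30.03% the repeat. Among genes with 3′ UTRs of similar length these shares were lower for 4 of the 5 genes, 3.05% to 15.7% for the element and 2.41% to 16.9% for the repeat, and for Fbxo32 they were 26.3% and 31.7%. These matches are letters in a window and were not set against binding data. The shorter words, such as UGUU, that the study used to place CELF1 sites were not searched, so nothing is concluded on CELF sites.

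Tnfrsf12a, the receptor, was the member that stood highest at 7 d relative to control. Its hearts had 21.2, 35.8 and 30.7 RPKM in the control group, 23.2, 30.2 and 44.99 RPKM at 12 h, 19.7, 29.4 and 29.8 RPKM at 24 h, 29.8, 47.1 and 39.5 RPKM at 72 h and 78.0, 131 and 92.6 RPKM at 7 d. The 3 hearts of 7 d lay above the other 12, with no overlap, while the hearts of the other 4 groups overlapped throughout. By group mean the order was 7 d, 72 h, 12 h, control and 24 h, and only the first 2 in it did not overlap. The 7 d hearts averaged 100.6 ± 27.4 RPKM and the control hearts 29.2 ± 7.41 RPKM (SD, n = 3 each), a ratio of means of 3.44. On the log2(RPKM + 0.5) scale used for all differences below, with the standard error from 1 limma fit of all 15 hearts, the difference was 1.76 ± 0.27, the 14th highest of the 10557 genes whose mean reached 1 RPKM. The differences from control at 12 h, 24 h and 72 h were 0.14, -0.14 and 0.41 (SE 0.27 each), and 7 d exceeded 72 h by 1.35. Within run A, the 1 heart at 7 d had 3.68 times the RPKM of the 1 control heart, and the 2 hearts at 72 h averaged 1.81 times it.

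Tnfsf12, the ligand, was the least abundant of the 6. Control hearts had 6.83, 9.43 and 10.7 RPKM, 12 h hearts 5.12, 8.34 and 14.1 RPKM, 24 h hearts 5.41, 9.76 and 9.11 RPKM, 72 h hearts 7.60, 7.59 and 8.30 RPKM, and 7 d hearts 4.32, 7.64 and 8.34 RPKM. Every group overlapped every other, and by mean the order was 12 h, control, 24 h, 72 h and 7 d. The 7 d mean was 0.75 times the control mean, with a log2 difference of -0.41 ± 0.32. The read-through row had 5.20 to 11.3 RPKM at 12 h and 7.18 to 9.90 RPKM in control hearts. Its Pearson r to Tnfsf12 was 0.94 over the 15 hearts and 0.97 after each group mean was subtracted, while its group means came in another order, control, 24 h, 12 h, 7 d and 72 h.

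Trim63, which encodes MuRF1, had the highest mean of the 6 over all 15 hearts, 174 RPKM, the 376th of 16199 genes. That place rests on its 72 h and 7 d hearts, since Trim54 had the higher group mean at 12 h, 24 h and in control hearts. Its hearts had 139, 119 and 130 RPKM in the control group, 133, 124 and 125 RPKM at 12 h, 117, 175 and 139 RPKM at 24 h, 212, 208 and 215 RPKM at 72 h and 237, 270 and 265 RPKM at 7 d. All 6 hearts of 72 h and 7 d lay above all 9 others, and the 7 d hearts lay above the 72 h hearts. Below these, 24 h, control and 12 h followed by mean and overlapped each other. The 72 h mean was 1.64 times and the 7 d mean 1.99 times the control mean. The log2 differences were 0.71 at 72 h and 0.99 at 7 d (SE 0.12 each), and 72 h exceeded 24 h by 0.58. Within run A the ratios to the control heart were 1.52 at 72 h and 1.71 at 7 d.

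**Figure D1:**
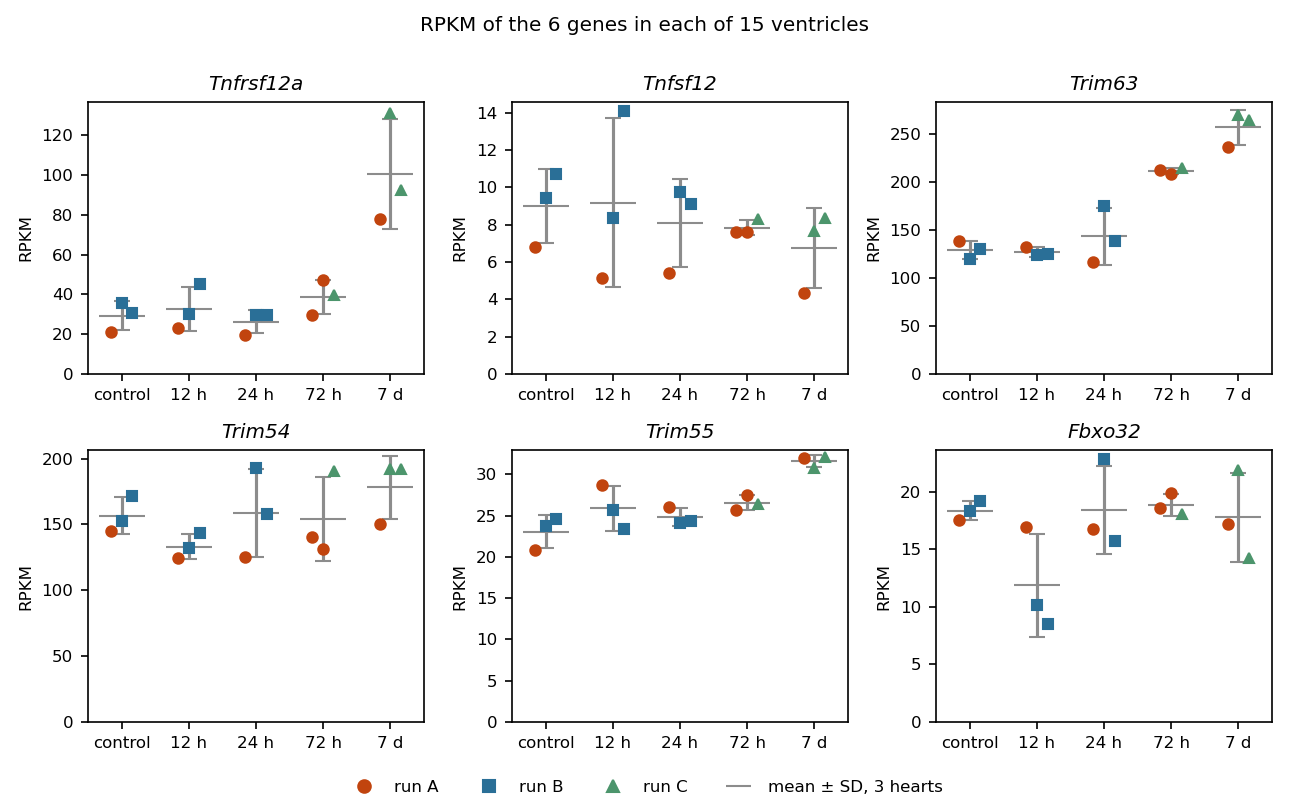
RPKM (vertical axes, from 0) of the 6 genes in each of 15 ventricles, by group in order of time on the horizontal axes. Each symbol is a heart, its shape and colour give the run, and the grey line and bar are the mean ± SD of 3 hearts; the 7 d hearts of Tnfrsf12a sit between 78.0 and 131 RPKM, and the control hearts between 21.2 and 35.8 RPKM.

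Trim55, which encodes MuRF2, differed less. It had 20.8, 23.8 and 24.6 RPKM in control hearts, 28.8, 25.6 and 23.3 RPKM at 12 h, 26.1, 24.2 and 24.3 RPKM at 24 h, 25.7, 27.5 and 26.4 RPKM at 72 h and 32.0, 30.8 and 32.1 RPKM at 7 d. The 7 d hearts lay above all others and differed among themselves by little more than 1 RPKM. The ratio of the 7 d mean to the control mean was 1.37, and the log2 difference was 0.45 ± 0.096. The 72 h hearts also lay above the control hearts, by about 1 RPKM for the nearest pair, and the 12 h and 24 h hearts overlapped control. The 1 run A control heart was the lowest of the 15, and against it the run A hearts of 12 h, 24 h, 72 h and 7 d had ratios of 1.38, 1.25, 1.28 and 1.54. In run B the ratios at 12 h and 24 h were 1.01 and 1.00.

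Trim54, which encodes MuRF3, came after Trim63 by mean over all hearts, with 156 RPKM. It had 145, 153 and 172 RPKM in control hearts, 124, 132 and 143 RPKM at 12 h, 126, 193 and 158 RPKM at 24 h, 140, 132 and 191 RPKM at 72 h and 150, 192 and 192 RPKM at 7 d. The 12 h hearts lay just below the control hearts (143 against 145 RPKM for the nearest pair), and the other groups overlapped control. By mean the order was 7 d, 24 h, control, 72 h and 12 h, with every neighbouring pair overlapping. The log2 difference was -0.23 at 12 h and 0.18 at 7 d (SE 0.16 each), and the second of these turned to -0.039 with Y-linked mRNA in the fit and to -0.19 with the run added.

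Fbxo32, the F-box member, had its lowest mean at 12 h and lay further below control there than any of the other 5 genes. Its 12 h hearts had 16.9, 10.2 and 8.50 RPKM, and the control hearts had 17.6, 18.3 and 19.2 RPKM. All 3 hearts of 12 h lay below the control hearts, though the highest of them only by less than 1 RPKM. The log2 difference of 12 h from control was -0.67 ± 0.21, the 192nd lowest of 10557, and the ratio was 0.50 within run B and 0.96 within run A. At 24 h it had 16.7, 22.8 and 15.7 RPKM, at 72 h 18.6, 19.9 and 18.1 RPKM, and at 7 d 17.2, 21.9 and 14.3 RPKM. These 3 groups overlapped control, and by mean the order was 72 h, 24 h, control, 7 d and 12 h. The 7 d mean stood at 0.97 times the control mean, with a log2 difference of -0.07 ± 0.21. Trim63 and Fbxo32 are often measured together as the pair of atrophy ligases. At 72 h and 7 d the Trim63 hearts lay above control and the Fbxo32 hearts overlapped it, and the difference between these genes was not tested.

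**Figure D2:**
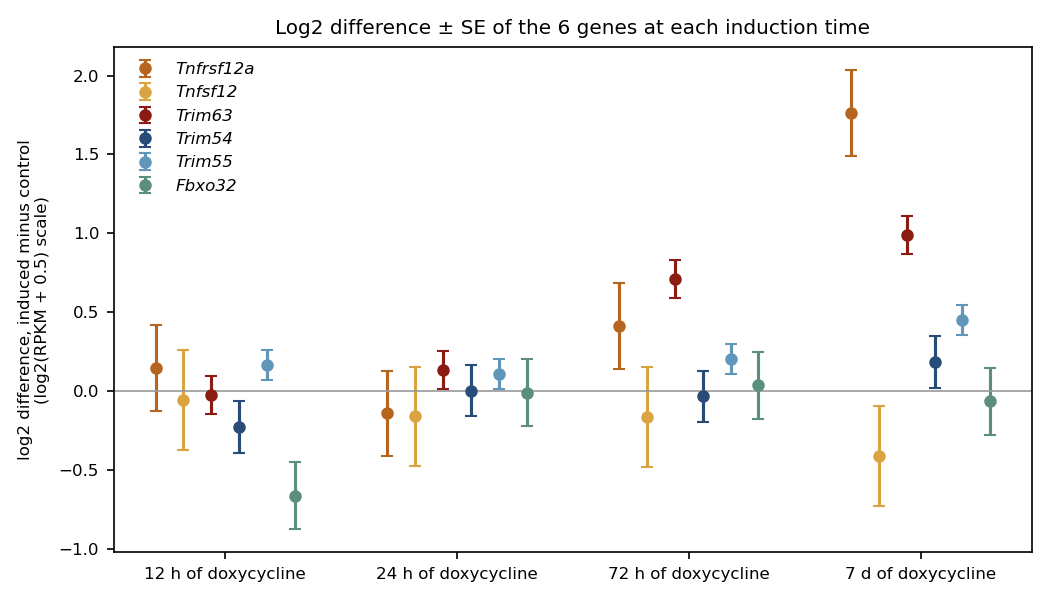
Log2 difference of the 6 genes from control (vertical axis, log2(RPKM + 0.5) scale) after 12 h, 24 h, 72 h and 7 d of doxycycline (horizontal axis). Points are estimates and bars ± 1 SE of the fit of 15 hearts; at 7 d Tnfrsf12a stands at 1.76, Trim63 at 0.99 and Trim55 at 0.45, while Fbxo32 is lowest at 12 h (-0.67).

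Beside these differences stand the results of the fit over all genes, in which a gene is called when its limma p, adjusted by the Benjamini-Hochberg method over 10557 genes, is under 0.05. Of the 6 genes, 0 were called at 12 h, where 0.388% of all genes were, and 0 at 24 h (0.0947% of all). With the run as a covariate 0 of the 6 were called at either time, while the calls over all genes were 772 and 326 in place of 41 and 10. At 72 h 1 was called, Trim63 (0.597% of all), and at 7 d 3 were, Tnfrsf12a, Trim63 and Trim55 (9.99% of all, 616 genes higher and 439 lower). Between neighbouring times, 0 of 6 were called for 24 h against 12 h (0.559% of all), Trim63 for 72 h against 24 h (0.654%) and Tnfrsf12a for 7 d against 72 h (2.52%). Since these contrasts chose the genes, nothing is read from the counts, nor from whether a call held in the alternative fits that follow. The 72 h call of Trim63 was lost on leaving out 72 h heart 1 or 2 or any 1 control heart, once Y-linked mRNA entered the fit, whether or not the run did, and when only these 2 groups were fitted, and the 7 d calls of all 3 held on leaving out any 1 of the 15. The call of Tnfrsf12a against 72 h was lost without 72 h heart 1 or 7 d heart 2 or 3 and in a fit of the 2 groups alone. That of Trim63 against 24 h held without 12 h heart 1 or 24 h heart 2 and was lost without any other, and it was also lost with no filter, with Y-linked mRNA (alone or with the run) and in a fit of the 2 groups alone. At 12 h Fbxo32 was called once 12 h heart 1, its highest, was left out. With Y-linked mRNA as a covariate the 7 d call of Trim55 was lost, and with the run added that of Trim63 as well. The whole set of genes shifted by a median log2 of 0.11 for 7 d against 72 h and by 0.10 or less in size elsewhere.

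Hearts also varied within groups. For Tnfrsf12a, Tnfsf12 and Trim54, the lowest heart of all 5 groups was a run A heart, against 3 of 5 groups for Trim63, 2 for Trim55 and 1 for Fbxo32. Over the 15 hearts, the Pearson r of Tnfrsf12a was 0.78 to Trim63, 0.72 to Trim55, 0.54 to Trim54, 0.05 to Fbxo32 and 0.02 to Tnfsf12. After each group mean was subtracted, the r of Tnfrsf12a was 0.81 to Tnfsf12, 0.52 to Trim54 and 0.17 to Trim63. That of Trim54 was then 0.71 to Tnfsf12, 0.66 to Trim63, 0.04 to Fbxo32 and -0.24 to Trim55. The receptor and Trim63 were thus alike in their group means and less so among hearts of a group, and the receptor and its ligand the other way round. The mouse Celf2 row had an r of 0.45 to Tnfrsf12a, 0.64 to Trim63, 0.74 to Trim55, 0.07 to Trim54, 0.04 to Fbxo32 and -0.37 to Tnfsf12. After group means were subtracted these were -0.42 to Tnfrsf12a, 0.0052 to Trim63, 0.62 to Trim55, -0.29 to Trim54, 0.82 to Fbxo32 and -0.64 to Tnfsf12. The 15 points share groups and runs, and these values are descriptions.

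**Figure D3:**
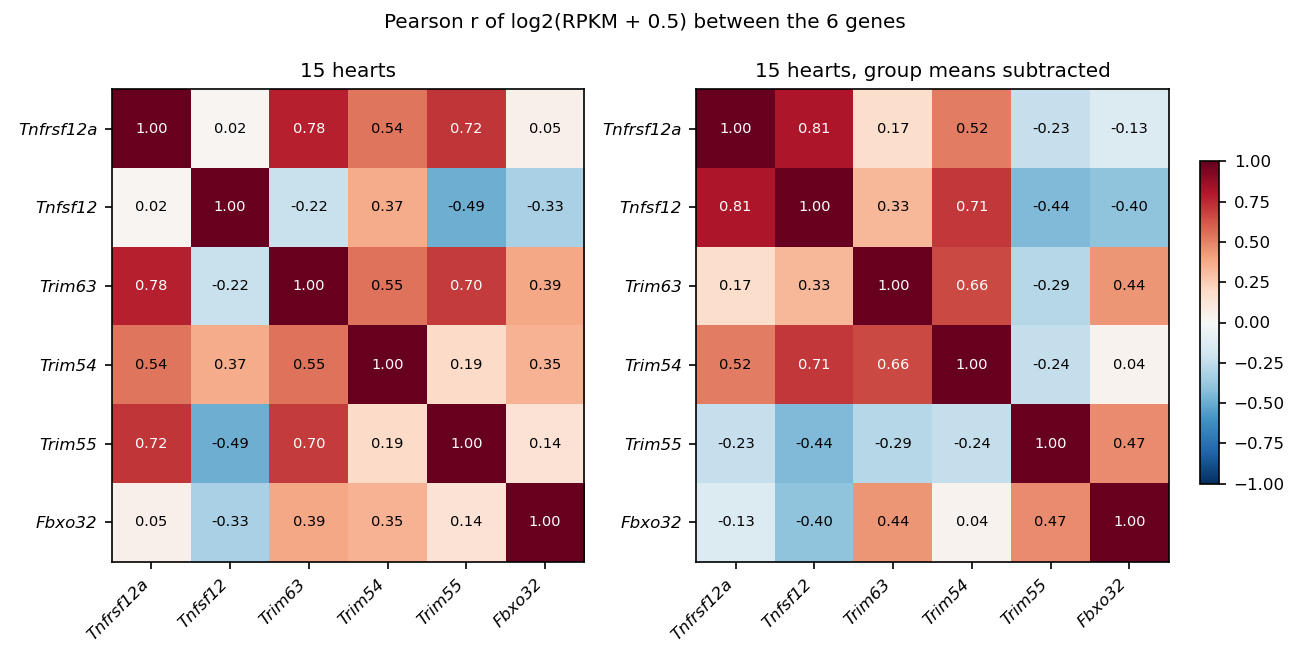
Pearson r of log2(RPKM + 0.5) between each pair of the 6 genes over 15 hearts, on the left as measured and on the right after subtracting each group's mean, with colour from -1 (blue) to 1 (red). Tnfrsf12a and Trim63 stand at 0.78 on the left and 0.17 on the right, Tnfrsf12a and Tnfsf12 at 0.02 and 0.81.

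The genes whose profile over the 15 hearts was most like that of each member were taken by Pearson r of log2(RPKM + 0.5) among the 10557. For Tnfrsf12a they were Hspb3 (a small heat shock protein of muscle, 0.96), Mrpl19 (a mitochondrial ribosomal protein, 0.95), Csrp3 (muscle LIM protein of the Z-disc, 0.95) and Dexi (0.94), with Abi3bp (-0.95) and Pts (-0.94) most opposite. For Trim63 they were Spast (the microtubule-severing spastin, 0.95), Chchd8 (0.95), Grpel1 (a co-chaperone of protein import into mitochondria, 0.94) and Mrpl9 (another mitochondrial ribosomal protein, 0.94), with Zfp14 (-0.95) and Anubl1 (-0.94) most opposite. For Fbxo32 they were Bach1 (a transcription repressor, 0.90), Hdac4 (a histone deacetylase, 0.90), Mlxip (a glucose-responsive factor, 0.89) and Adra1a (an adrenergic receptor, 0.87). The most opposite to Fbxo32 were St6galnac3 (-0.85) and Armet (-0.84).

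For Trim55 the most alike were Qrsl1 (0.94), Gm428 (0.93), A930038C07Rik (0.92) and AI413782 (0.92), and the most opposite Clk3 (-0.89) and Myh7b (-0.88). For Trim54 they were Abtb1 (0.96), Calcoco1 (0.95), Sbk1 (0.93) and Lztr1 (0.92), with Esf1 (-0.94) and Thoc1 (-0.89) most opposite. For Tnfsf12 they were Ccdc9 (0.94), the read-through row that shares its coding sequence (0.94), Tcea3 (0.94) and Ccdc49 (0.93). Most opposite to Tnfsf12 were Pafah1b1 (-0.93) and 2700060E02Rik (-0.92). Group means set the likeness differently for the members. For Calcoco1 and Trim54 r was 0.97 after group means were subtracted and for Spast and Trim63 0.18.

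Other genes of the pathway were taken from 11 lists with 270 genes in the table, of which 230 passed the filter. The lists were chosen with earlier results of these data known, so their calls and medians are a description. The 230 genes had 23 calls at 7 d, 8 higher and 15 lower, or 10% of those tested, close to the 9.99% of all genes. At 12 h there was 1 call (Zbtb16, a zinc finger factor induced by glucocorticoids, -1.47 with a limma adjusted p of 0.0322), at 24 h 0 and at 72 h 1. With the run as a covariate these counts were 24, 7 and 7. Over all genes at 24 h, limma gave 10 calls, and 972 genes had an unadjusted p under 0.05. For 24 h against 12 h there were 2 calls, Fas and Zbtb16 (1.73, adjusted p = 0.00773), for 72 h against 24 h 1 and for 7 d against 72 h 4 (Kbtbd10, Actc1, Tsc22d3 and Mt1, the metallothionein induced by glucocorticoids and metals). Zbtb16 and Mt1 are named because of these small counts, after their values were seen. The 12 h call of Zbtb16 was lost without 12 h heart 2 or 3, control heart 2 or 3, 24 h heart 2 or 3, 72 h heart 1 or 7 d heart 2. The 7 d against 72 h call of Mt1 was lost without any 1 of the 72 h hearts or 7 d heart 1 or 2. The 23 calls of 7 d became 10 without any 1 of the 3 hearts of that group, 9 to 13 without 1 control heart, 9 with Y-linked mRNA in the fit and 2 (Kbtbd10 and Mapk14) with the run as well.

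Among the relatives of the receptor, 12 of 25 listed genes were tested and 1 fell at 7 d, when 9.99% of all genes were called. The list holds TNF receptor family genes and also Cd163, which is not of that family. Tnfrsf25, the death receptor of the ligand TL1A, had 0.77 to 0.84 RPKM at 7 d and 1.68 to 2.07 RPKM in control hearts, a log2 difference of -0.87 ± 0.21 (adjusted p = 0.019). Fas, another death receptor, rose at 24 h against 12 h by 0.82 ± 0.14 (adjusted p = 0.0128), with 3.97 to 5.30 RPKM at 24 h and 2.34 to 2.45 RPKM at 12 h. Of 15 ligand genes only 3 passed the filter. Tnfsf13b (BAFF, a B cell survival factor) had 0.67 to 0.88 RPKM at 7 d and 1.29 to 1.73 RPKM in control hearts. It fell at 7 d by 0.63 ± 0.17 (limma adjusted p = 0.0314). These levels, like those of Tnfrsf25, are not far above the 0.5 RPKM added before the log2. Cd163, a macrophage receptor reported to take up TWEAK, had 1.23 to 1.64 RPKM at 7 d and 1.64 to 1.99 RPKM in control hearts, and Tnfsf13, the neighbour of Tnfsf12, 3.79 to 4.66 RPKM at 7 d and 4.78 to 6.09 RPKM in control hearts. Neither passed the test (adjusted p = 0.454 and 0.0937 by limma). The calls of Tnfrsf25 and Tnfsf13b were lost without any 1 of the 7 d hearts or control heart 1 or 3, that of Tnfsf13b also without control heart 2, and the call of Fas without 12 h heart 2 or 24 h heart 1 or 2. The 13 macrophage markers summed to 125 to 170 RPKM at 7 d and 160 to 168 RPKM in control hearts.

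Below the receptor, 1 of 25 tested genes of TRAF and NF-kB signalling was called at 7 d, when 9.99% of all genes were. Map3k7ip2 (Tab2, the adaptor of the kinase TAK1) had 35.1 to 42.4 RPKM at 7 d and 19.6 to 21.7 RPKM in control hearts, a log2 difference of 0.86 ± 0.10 (adjusted p = 0.000221 by limma). It was also the 1 list gene that rose at 72 h against 24 h (0.52 ± 0.10, adjusted p = 0.0368), a call that was lost on leaving out any 1 of the 72 h or 24 h hearts, 7 d heart 2 or 3 or control heart 2 or 3. Its 7 d call was lost with run and Y-linked mRNA in the fit. The median of the 25 at 7 d was 0.02, against 0.03 for all genes.

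Of 31 other muscle ubiquitin ligases and adaptors tested, 0 rose and 2 fell at 7 d, when 9.99% of all genes were called. Kbtbd10 (Klhl41, a kelch adaptor of cullin ligases that stabilises thin filament proteins) had 34.4 to 37.4 RPKM at 7 d and 48.7 to 63.2 RPKM in control hearts, -0.65 ± 0.10 on the log2 scale (adjusted p = 0.00129 by limma). Rnf207, a RING-finger protein of the heart, had 18.4 to 20.8 RPKM at 7 d and 33.3 to 45.2 RPKM in control hearts, -0.99 ± 0.17 (adjusted p = 0.00192). Against 72 h, Kbtbd10 fell by 0.52 ± 0.10 (adjusted p = 0.0193), a call lost without 72 h heart 1 or 2 or 7 d heart 2 or 3. The 7 d call of Rnf207 was lost with run and Y-linked mRNA in the fit, while that of Kbtbd10 was kept. The core subunits of the ligase that Fbxo32 joins did not pass the test at 7 d (Skp1a -0.25 ± 0.11, Cul1 0.08 ± 0.13, Rbx1 -0.0018 ± 0.13). Of 28 genes of ubiquitin, E1, E2 and ligase core function, 2 conjugating enzymes rose at 7 d, as did 616 of all 10557 genes. These were Ube2g1 (0.48 ± 0.12, adjusted p = 0.0238 by limma) and Ube2n (0.32 ± 0.09, adjusted p = 0.0334). Both lost the call without 7 d heart 1 or 3 or control heart 1 or 2, and Ube2n also without 7 d heart 2 or control heart 3.

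Among 25 genes reported as partners or substrates of the ligases, 4 rose and 2 fell at 7 d, with a median of 0.02. Over all 10557 genes 616 rose and 439 fell. Actc1, cardiac actin, had 8570 to 9434 RPKM at 7 d and 5370 to 6158 RPKM in control hearts (0.63 ± 0.08, adjusted p = 0.000367 by limma). Chmp2b, an endosomal sorting subunit, rose by 0.56 ± 0.13 (adjusted p = 0.0149), and Mybpc3, the thick filament protein cardiac myosin-binding protein C, by 0.43 ± 0.12 (adjusted p = 0.0359). Myh6, the adult cardiac myosin heavy chain whose promoter drives the transactivator, fell by 0.36 ± 0.09 (adjusted p = 0.0261), with 5424 to 5767 RPKM at 7 d and 6890 to 7330 RPKM in control hearts. The call of Chmp2b was lost without 7 d heart 1 or 3 or control heart 2. That of Mybpc3 was lost without 7 d heart 2 or 3 or any 1 control heart. The Myh6 call was lost without any 1 heart of the 7 d or control group. Actc1 kept its call on leaving out any 1 heart and lost it with run and Y-linked mRNA in the fit. Against 72 h Actc1 rose by 0.37 ± 0.08 (adjusted p = 0.033), a call lost under median-ratio, upper-quartile and quantile scaling and without 72 h heart 1 or 2, 7 d heart 2 or 3 or control heart 3.

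Of 20 tested genes that glucocorticoids or stress induce, or that relay stress, in atrophying muscle, 0 rose and 8 fell at 7 d. Over all 10557 genes 616 rose and 439 fell. The median of the list was -0.60 against 0.03 for all genes. This list was chosen with earlier results of these data known, so these values are a description. Per1, the clock repressor, had 4.19 to 5.20 RPKM at 7 d and 20.2 to 26.2 RPKM in control hearts (-2.22 ± 0.43, adjusted p = 0.00486 by limma). Tsc22d3 (GILZ, the glucocorticoid-induced leucine zipper protein) had 37.8 to 40.7 RPKM at 7 d and 88.5 to 120 RPKM in control hearts (-1.35 ± 0.23, adjusted p = 0.00212), and Sgk (Sgk1, a glucocorticoid-induced kinase) 13.9 to 15.2 RPKM at 7 d and 25.3 to 34.4 RPKM in control hearts (-0.97 ± 0.20, adjusted p = 0.00703). Mapk14, the stress kinase p38 alpha, fell by 0.55 ± 0.11 (adjusted p = 0.00537). Against 72 h, Tsc22d3 fell by 0.95 ± 0.23 (adjusted p = 0.0451), a call that was lost without any 1 heart of 7 d, 72 h or control, 24 h heart 1 or 2 or 12 h heart 2. The median of this list at 12 h was -0.36, against -0.10 for all genes. These 4 genes kept their 7 d call on leaving out any 1 heart, and Per1, Tsc22d3 and Sgk lost it with run and Y-linked mRNA in the fit.

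**Figure D4:**
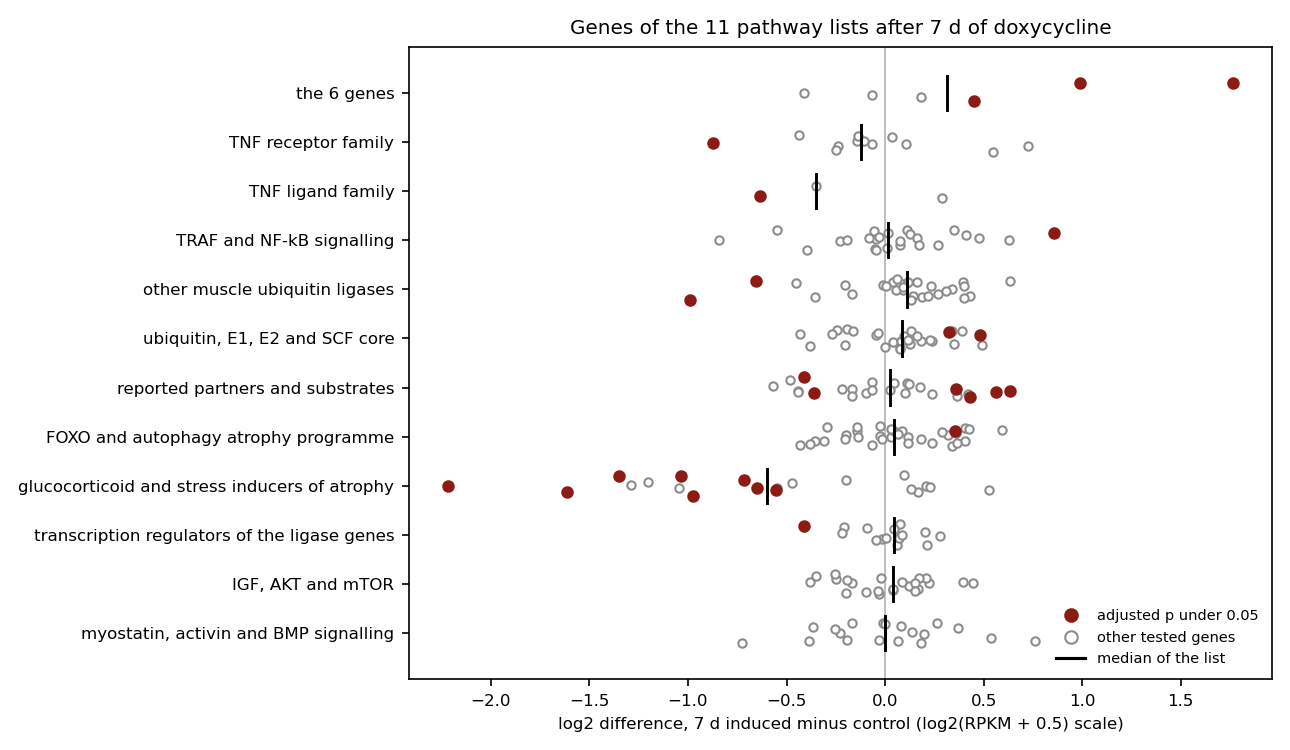
Log2 difference of 7 d from control (horizontal axis, log2(RPKM + 0.5) scale) for the tested genes of the 6 members and 11 pathway lists (rows). Filled points have an adjusted p under 0.05, open points are the other tested genes and the black line is the median of the row; the glucocorticoid and stress list has its median at -0.60 and 8 filled points, all below 0. Members and lists were chosen with earlier results of these data known.

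In the remaining lists few genes were called, and with 3 hearts a group a gene that was not called may still have differed. At 7 d 9.99% of all genes were called. Of 33 genes of the FOXO and autophagy programme of atrophy, 1 rose at 7 d, the lysosomal protease gene Ctsd (0.36 ± 0.11, adjusted p = 0.0474 by limma), and 1 fell at 72 h, the protease gene Ctsl (-0.41 ± 0.08, adjusted p = 0.0475), with the call of Ctsd kept only without 12 h heart 1, 24 h heart 2 or 3 or 72 h heart 2 or 3 and that of Ctsl only without 12 h heart 1 or 3 or 72 h heart 3, among the 15 hearts left out in turn. Of 15 transcription regulators of the ligase genes, Atf4, the factor of the integrated stress response, fell at 7 d by 0.41 ± 0.11 (adjusted p = 0.033), a call lost without any 1 of the 7 d hearts or control heart 1 or 2. None of 23 genes of IGF, AKT and mTOR signalling and none of 19 of myostatin, activin and BMP signalling passed at 7 d, with medians of 0.04 and -0.0028.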

How the data were processed

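Poly(A)+ RNA of 15 ventricles was sequenced strand-specifically as read pairs. The authors mapped the reads with Bowtie and TopHat to mm9 (versions not given in the sources used here) and deposited RPKM values with 2 decimals, per kilobase of constitutive coding sequence and scaled by the uniquely mapping nonribosomal, nonmitochondrial reads. Read totals are not in the table, so depth is unknown and precision is given by the spread between hearts. Each library lists 1463 to 1977 genes at 0. Groups came from the sample labels. The members and lists were chosen with earlier results of these data known.

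The 10557 of 16199 genes whose mean reached 1 RPKM were fitted on log2(RPKM + 0.5) in limma 3.58.1 (R 4.3.3) with a mean-variance trend and all 5 groups in 1 fit, for 7 comparisons, after the code was tested on simulated data. Benjamini-Hochberg adjustment ran over all 10557 genes. Named were the 6 members, up to 4 called genes per list with the smallest adjusted p, the 4 genes most like and 2 most opposite to each member, Celf2 and 5 partners. Positions and coding words are from the GENCODE mm9 annotation, promoters from RefSeq.

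The alternatives were pseudocounts of 0.1 and 1, no filter or one of 5 RPKM, 3 scalings between hearts, run and Y-linked mRNA as covariates, the 2 groups alone, values within run A, and each heart left out. Library weights by REML did not converge, so gene-by-gene weights took their place, a choice made after seeing the data.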

Additional observations from a re-analysis of the deposited data

How the results depend on the processing

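No paired analysis was possible because the columns carry animal numbers and no replicate number links the groups. At 7 d the log2 difference of Tnfrsf12a was 2.17 with run and Y-linked mRNA as covariates, and that of Trim63 was 0.84 with Y-linked mRNA, 0.64 with both and 0.77 within run A. For Trim55 it was 0.35 with both covariates and 0.61 within run A, for Trim54 -0.039 with Y-linked mRNA and -0.19 with both, and for Fbxo32 -0.68 with both. Leaving out 1 heart gave 1.55 to 1.93 for Tnfrsf12a, -0.59 to -0.14 for Tnfsf12, 0.93 to 1.05 for Trim63, 0.12 to 0.30 for Trim54, 0.38 to 0.50 for Trim55 and -0.22 to 0.08 for Fbxo32. The cause of these moves was not tested.

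The following counts of called genes are given in the order 12 h, 24 h, 72 h and 7 d against control, then 24 h against 12 h, 72 h against 24 h and 7 d against 72 h, where they moved by over 1.5 times. As reported they were 41, 10, 63, 1055, 59, 69 and 266 of all genes. With the run as a covariate they were 772, 326 and 495 at the first 3 times and 250, 306 and 706 between times. With Y-linked mRNA they were 20, 1, 6, 415, 21 and 39 in the first 6 comparisons. With both they were 454, 185, 1 and 163 against control, 5 for 72 h against 24 h and 722 for 7 d against 72 h. In fits of the 2 groups alone they were 11, 47 and 1 at the first 3 times and 25, 2 and 57 between times. Gene-by-gene weights gave 1355, 218, 3955, 3317, 365, 1579 and 5005, which with 3 hearts a group may rest on few hearts. A filter at 5 RPKM gave 23, 6 and 40 at the first 3 times and 27 for 24 h against 12 h, where fewer genes were tested, and no filter gave 16 at 24 h. Median-ratio scaling gave 96 at 72 h and upper-quartile scaling 108 for 72 h against 24 h. Leaving out 1 heart gave 9 to 180, 1 to 28, 4 to 269, 529 to 1266, 27 to 84, 1 to 138 and 57 to 646.

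For the pathway lists, the reported counts in the same order were 1, 0, 1, 23, 2, 1 and 4. With the run they were 24, 7 and 7 at the first 3 times and 10, 6 and 19 between times, with Y-linked mRNA 0 at 12 h, 0 at 72 h, 9 at 7 d, and 0 and 0 in the first 2 steps between times. With both they were 17, 5, 0, 2, 4, 0 and 23. Alone, the 2 groups gave 0 at 72 h, 35 at 7 d and 1, 0 and 1 between times, and weights gave 44, 4, 80, 75, 11, 38 and 92. Median-ratio scaling gave 2, 1, 4, 2 and 7 at 12 h, 24 h and the 3 steps between times, upper-quartile scaling 3, 1, 4, 2 and 7, and quantile normalization 3, 1, 4 and 2 without the last. A filter at 5 RPKM gave 1 for 24 h against 12 h, no filter 2 for 7 d against 72 h and a pseudocount of 1 gave 2 for 72 h against 24 h. Leaving out 1 heart gave 0 to 11, 0 to 0, 0 to 3, 9 to 33, 1 to 6, 0 to 4 and 0 to 9.

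Depth is unknown, so how far it limits the low values of Tnfsf12 could not be given. No group has over 3 hearts, and induction time, run and Y-linked mRNA overlap in the 72 h and 7 d hearts.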
